A study of Caenorhabditis elegans with 2 samples.

Results

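The mitochondrial ribosomal protein genes of Caenorhabditis elegans were examined for sites enriched by immunoprecipitation of TBX-9, a factor of the T-box family with a known role in shaping the embryo. The genes were defined by name, as protein-coding genes of the Ensembl release 115 annotation of WBcel235 called mrpl- or mrps- followed by a digit, and 70 of 19985 protein-coding genes met this rule. The set itself was chosen with earlier results of these data known. Of these, 41 carry an mrpl name (large subunit) and 29 an mrps name (small subunit). RefSeq product names were found for all 70 and named a ribosomal protein for 69. The exception was mrps-27. The name mrps-18C disagreed with its product on the subunit, as it is described there as the large subunit protein uL3m. The product of mrpl-48 is named by a domain, that of the small subunit protein uS10, which does not by itself place it in a subunit.

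The worms were young adults of strain OP636, of mixed sex, collected 63 hours after synchronization as starved L1 larvae. They carried the mutation unc-119(tm4063) and the integrated transgene wgIs636, which expresses TBX-9 with a C-terminal GFP-FLAG tag, and an antibody to GFP was used. The promoter that drives the transgene is not given in the labels. The control experiment that the labels point to was not analysed here. There was 1 group with 2 libraries, described as biological replicates, and no second condition, so nothing here is a response to a treatment, and whole animals were used, so no tissue can be assigned.

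Mitochondrial ribosomes translate the few proteins encoded by mitochondrial DNA, all of them subunits of the respiratory chain or of ATP synthase. Their protein subunits are encoded in the nucleus, made in the cytoplasm and imported. In C. elegans, loss of some of these proteins, of MRPS-5 in particular, is known to slow respiration, induce the mitochondrial unfolded protein response and lengthen life. Many worm housekeeping genes lie in operons, where the pre-mRNA of a downstream gene is cut and trans-spliced to a leader, so that an annotated start need not be a promoter.

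Peak summits stood close to most of these genes, but most of those peaks were not among the strongest of their list. In the pooled list of relaxed peaks, which holds 30000 peaks and by design includes background, 56 of the 70 genes had a summit (the highest point of a peak) within 1000 bp of a transcript start. That is 80% (95% Wilson interval 69.2 to 87.7), against 51.4% of all protein-coding genes. Replicate 1 gave 48 genes, 68.6%, against 47.4% of all protein-coding genes, and replicate 2 gave 48 genes, 68.6%, against 51.3%. Both replicates held a peak for 40 genes, 57.1% (45.5 to 68.1), against 31.9% of all protein-coding genes. The pool and both replicates held one for 39 genes, against a background of 29.7%. No list held a peak for 11 genes, 15.7% (9.01 to 26.0), against 30.7% of all protein-coding genes. The intervals cover counting error over genes only, and genes are not replicates of the experiment.

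The list of peaks that passed the irreproducible discovery rate (IDR) threshold held none of these genes. An IDR summit lay within 1000 bp of a start for 0 of 70 genes, and a count of 0 allows up to 4.29% by the limit of 3 counts and up to 5.2% by the Wilson interval, against 0.5% of all protein-coding genes. A share as low as 0.5% was not detectable with 70 genes. Between these extremes, 13 genes had a pooled peak among the 3000 strongest, 18.6% (11.2 to 29.2), against 8.66% of all protein-coding genes. A deposited q-value at or below 0.05 was held by 10 genes, 14.3% (7.95 to 24.3), against 5.49%.

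**Figure D1:**
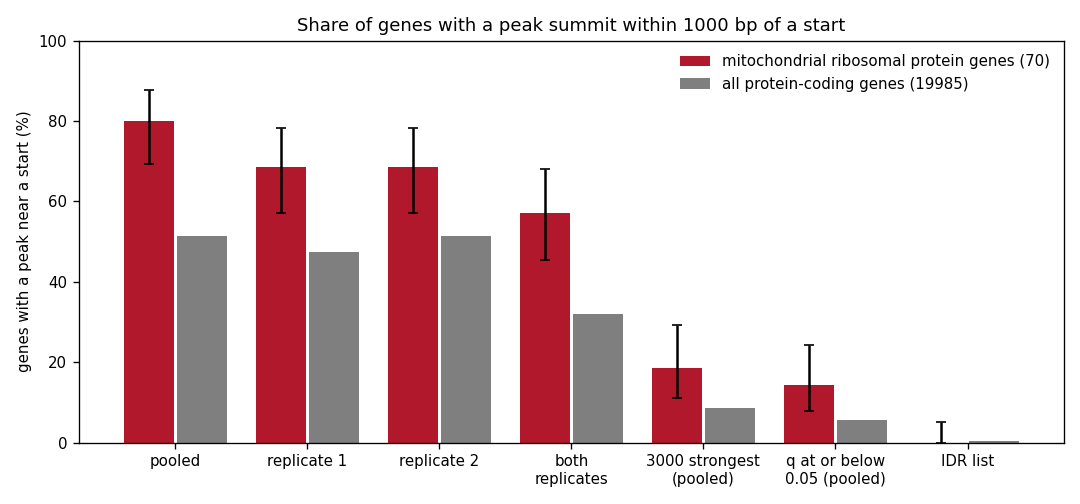
Share of genes (%) with a peak summit within 1000 bp of a start, for 7 ways to count a peak; red bars are the 70 mitochondrial ribosomal protein genes with 95% Wilson intervals, grey bars all 19985 protein-coding genes. The red bar is the higher one in 6 of the 7, from 80% against 51.4% in the pooled list to 14.3% against 5.49% for q-values at or below 0.05, and it is at 0 for the IDR list.

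Among genes that had a peak, these were of middling strength. The signal value used here is the authors' own value for each peak, and no source used here says how it was scaled, so strength is also given as a percentile among all protein-coding genes with a peak in the same list. The median signal in the pooled list was 30.0 over the 56 genes, against 27.8 over 10275 protein-coding genes, and the median percentile was 58.6 (95% interval from order statistics, 40.2 to 68.2). In replicate 1 the median percentile was 68.9 over 48 genes (41.4 to 77.9) and in replicate 2 it was 55.3 over 48 genes (29.8 to 70.1). Genes with no peak are not part of these medians.

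The strongest peaks belonged to large subunit genes. The summits of 4 genes on chromosomes II, III and V are shown because they contrast a peak between genes with peaks inside the gene itself. Each window is 101 bases of the forward strand of the RefSeq WBcel235 sequence, which is also the strand of the gene, and the capital marks the summit. The windows are chrIII:8449352-8449452 for mrpl-32, chrII:288959-289059 for mrpl-41, chrII:8929896-8929996 for mrpl-50 and chrV:8465700-8465800 for mrps-2.
mrpl-32: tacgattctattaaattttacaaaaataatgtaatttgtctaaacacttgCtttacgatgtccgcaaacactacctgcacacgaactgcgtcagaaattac
mrpl-41: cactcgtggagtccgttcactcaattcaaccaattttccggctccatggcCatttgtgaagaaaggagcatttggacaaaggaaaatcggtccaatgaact
mrpl-50: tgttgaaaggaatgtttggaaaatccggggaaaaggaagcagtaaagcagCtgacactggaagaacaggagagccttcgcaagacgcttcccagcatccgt
mrps-2: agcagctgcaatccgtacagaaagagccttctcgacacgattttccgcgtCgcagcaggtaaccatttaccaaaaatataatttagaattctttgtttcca
The mrpl-32 window is intergenic and 33.7% G and C, while the summits in the other windows lie in coding sequence and the windows hold 45.5%, 49.5% and 41.6% G and C in the order shown.

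mrpl-32 (WBGene00016249, chromosome III of WBcel235, 8449757 to 8450519, plus strand), which encodes the large subunit protein bL32m, had the highest signal. It stood at 120.5 in the pooled list, 88.0 in replicate 1 and 32.8 in replicate 2, at ranks 70, 44 and 515. Replicate 1 therefore placed it much higher than replicate 2, although its percentile was above 96 in both, 99.7 and 96.7. The pooled summit at 8449402 lay 355 bp upstream of the start and 56 bp past the end of rpn-3, a proteasome subunit gene on the same strand that ends at 8449346. No noncoding gene lay within 250 bp of it, with piRNA genes and pseudogenes not searched. The replicate summits, at 8449409 and 8449397, were 12 bp apart, so all 3 lists placed the peak in the gap of 410 bp between rpn-3 and mrpl-32.

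mrpl-23 (chromosome I, 6211270 to 6211885, minus strand), for the large subunit protein uL23m, came next with 104.3 in the pooled list, 47.0 in replicate 1 and 57.7 in replicate 2. Here replicate 2 gave the higher rank, 45 against 395 in replicate 1. The summit stood 971 bp upstream of the start, in an intron of fars-1, which encodes a phenylalanyl-tRNA synthetase subunit, and close to the edge of the window. The snoRNA gene T08B2.13 and the noncoding RNA gene T08B2.14 lay within 250 bp of it. Whether the peak has to do with mrpl-23 was not tested.

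The next strongest genes had summits just inside their own first 150 bp. mrpl-41 (chromosome II, 288939 to 290386) had 67.7 in the pooled list, 45.3 in replicate 1 and 30.3 in replicate 2, with summits 70, 28 and 107 bp downstream of the start. mrpl-50 (II, 8929841 to 8930940) had 62.7, 28.9 and 38.1 in the same lists, with summits at 105, 105 and 83 bp. Both summits lay in coding sequence of the gene, and the replicate summits were 79 bp apart for mrpl-41 and 22 bp apart for mrpl-50. mrpl-42 (IV, 9093563 to 9094456, minus strand) had 60.5, 39.8 and 20.3, its pooled summit 140 bp inside the gene in coding sequence. mrpl-13 (I, 7307117 to 7308626), for ribosomal protein L13, had 56.0 in the pool and nearly equal signals of 26.2 and 25.7 in replicates 1 and 2, at 108 bp in an intron of its own.

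The strongest small subunit genes stood below these. mrps-6 (I, 4173758 to 4174774, minus strand), for bS6m, had 55.5 in the pooled list, 28.1 in replicate 1 and 19.9 in replicate 2, with the summit 613 bp inside the gene and the start of R12E2.11 closer, at 537 bp. mrps-21 (IV, 4659049 to 4659517, minus strand) had 52.7, 42.0 and 14.1, with a pooled summit at -962 bp from its start and 278 bp from the start of F29B9.11. In replicate 2 the strongest mrps-21 peak was a different one, at -33 bp. mrps-2 (V, 8465686 to 8467159), for uS2m, followed at 48.4, with 17.0 in replicate 1 and 26.7 in replicate 2. Its summits, at 64, 32 and 65 bp, stood together while its percentile did not, at 29.0 in replicate 1 and 93.1 in replicate 2.

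**Figure D2:**
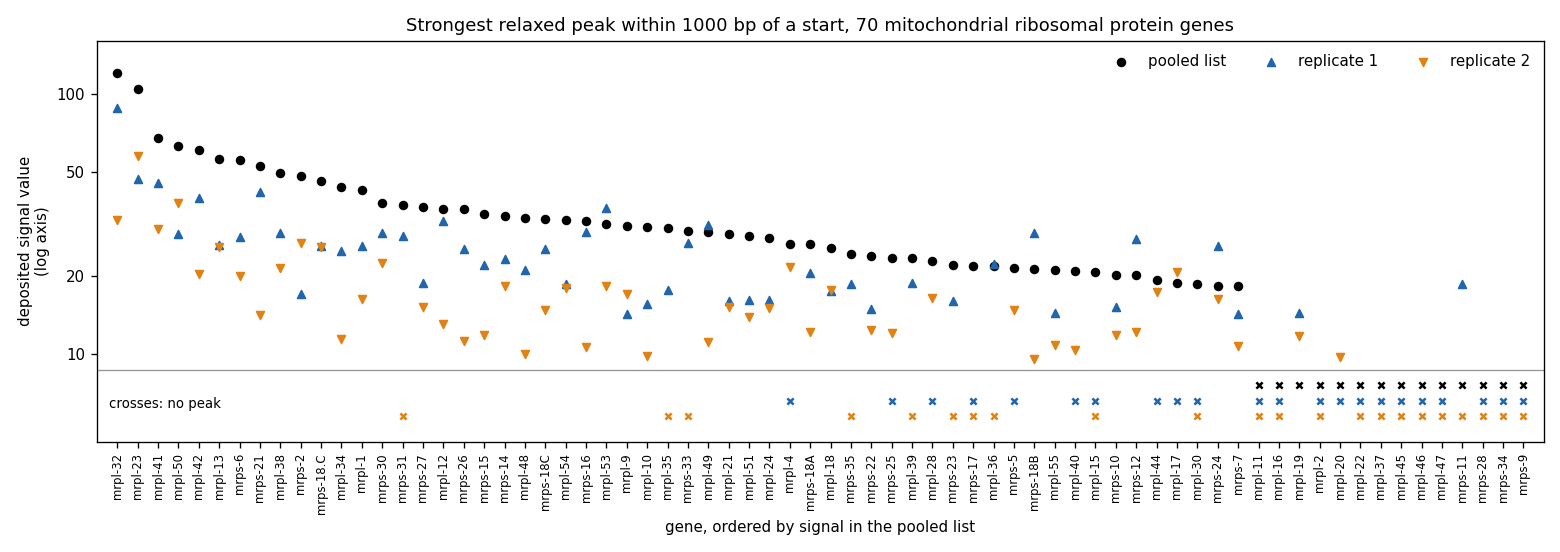
Deposited signal value (log axis) of the strongest relaxed peak within 1000 bp of a start for each of the 70 genes, ordered by the pooled list; circles are the pooled list, upward triangles replicate 1, downward triangles replicate 2, and crosses below the line mark a list with no peak. Signals in the pool run from 18.2 for mrps-7 to 120.5 for mrpl-32, and mrpl-32 and mrpl-23 stand apart from the rest, the next being mrpl-41 at 67.7.

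The place of the peak was steady between the libraries for some further genes and not for others. mrpl-38 (I, 1019827 to 1029910, minus strand), for mL38, had 49.4 in the pooled list, 29.2 in replicate 1 and 21.3 in replicate 2. Its percentiles of 83.8 and 83.6 were nearly equal, and the summit was intergenic at -634 bp, with the replicate summits 30 bp apart. mrps-30 had 37.9, 29.2 and 22.4 in the same order, at percentiles 84.1 and 86.4, with the pooled summit 64 bp inside its coding sequence, while its replicate summits were 216 bp apart. mrps-27, the gene whose RefSeq product is not called ribosomal, had 36.7, 18.8 and 15.2, with summits at 120, 120 and 123 bp. mrpl-34 had 43.8, 24.8 and 11.4, with summits at 319, 303 and 316 bp. In the case of mrpl-34 the place was steady and the strength was not, at percentiles 72.1 and 22.8.

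Adjacent genes of the same strand can be compared in a pair of places. mrps-2 ends 105 bp before mrpl-4, for uL4m, which had a separate peak of 26.4 in the pooled list, no peak in replicate 1 and 21.5 in replicate 2. By percentile mrps-2 was the stronger in replicate 2, at 93.1 against 29.0 in replicate 1. mrpl-4 stood at 84.3 in replicate 2 and has no percentile in replicate 1 to compare. The gene dap-3 ends 105 bp before mrps-22, which had 23.8 in the pooled list, 14.9 in replicate 1 and 12.3 in replicate 2, with its pooled summit 138 bp downstream of its start in an intron.

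At the weak end, 4 genes had pooled signals close to the lowest value of the list, 18.1. mrps-7, for uS7m, had 18.2, mrps-24 had 18.3, mrpl-30 had 18.6 and mrpl-17, for bL17m, had 18.7. All of these stood at rank 28108 or later of 30000. For mrps-24 and mrpl-17 the peaks found in the replicates were not the weak pooled ones. mrps-24, for uS3m, had 26.0 in replicate 1 and 16.2 in replicate 2, at percentiles 75.6 and 62.5. Those summits stood at -960 and -997 bp, where the weak pooled summit stood at -757 bp. mrpl-17 had no peak in replicate 1 and 20.7 in replicate 2, at percentile 81.8. The mrpl-17 peak of replicate 2 is a different one, with its summit 832 bp downstream of the start, where the pooled summit stood at -672 bp. The mrps-24 peaks of both replicates were the same peaks as those of mrpl-1, which lies nearby on the other strand, so that pair of genes shares 1 measurement in each replicate. In the pooled list mrpl-1 had a peak at 42.7, with the summit at 7709043, 41 bp inside the gene in its coding sequence. That summit lies near the shared replicate summits, at 7709085 and 7709048. It falls just outside the 1000 bp limit for mrps-24, which starts at 7710045. The pooled list thus gave mrps-24 a different and weaker peak, and no members shared a peak there. mrps-7 had 14.2 in replicate 1 and 10.7 in replicate 2, low in both. Its summits also stood apart, at 81 bp in replicate 1 and -871 bp in replicate 2, where the pooled summit stood at 384 bp. mrpl-30 had no peak in either replicate.

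mrps-5 (V, 12563487 to 12565801), the small subunit gene best known for its effect on worm lifespan, had a weak peak. Its pooled signal was 21.3, at rank 22021 and percentile 18.5, with the summit 45 bp inside the gene in coding sequence. Replicate 2 gave 14.8 at percentile 53.4, with its summit 476 bp downstream of the start, and replicate 1 had no peak there.

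The 4 genes named for the S18 protein, a family that animals hold in several copies, also varied. mrps-18.C had 46.0 in the pooled list, with a summit 952 bp downstream of its start, beyond its own end and in coding sequence of T14B4.1. mrps-18C, the gene that RefSeq describes as uL3m, had 33.0, mrps-18A had 26.4 and mrps-18B had 21.2. Another gene's start was closer to the strongest pooled summit for mrps-18.C, mrps-18A and mrps-18B, T14B4.1 at 251 bp, ZC262.2 at 6 bp and prp-9 at 285 bp.

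No list had a peak within 1000 bp of a start for 11 genes. These were mrpl-2 (of the uL2 family), mrpl-11 (uL11m), mrpl-16 (uL16m), mrpl-22 (uL22m), mrpl-37, mrpl-45, mrpl-46, mrpl-47 (uL29m), mrps-9 (uS9m), mrps-28 and mrps-34. They include proteins conserved in bacterial ribosomes from both subunits, and 6 of the 11 lie on chromosome III, which holds 22 of the 70 genes. For 3 more genes a replicate list alone held a peak: mrps-11, for ribosomal protein S11, had 18.6 in replicate 1, mrpl-20 had 9.72 in replicate 2, and mrpl-19, for bL19m, had 14.3 and 11.7 in replicates 1 and 2.

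The distance limit mattered for mrps-28. Its closest pooled summit stood 1044 bp from the start, with a signal of 110.0 at rank 96, and the closest IDR summit, with a signal of 134.6, stood 1036 bp away. That IDR peak lay in an intron of Y43F8C.7 with the snoRNA gene Y43F8C.22 within 250 bp. The next gene outside the limit was mrps-34, at 1176 bp with a signal of 32.5. Just inside it, going by each gene's closest pooled summit, were mrpl-23, at 971 bp with 104.3, and mrps-25, at 956 bp with 23.4. The strongest summit of mrps-21, at -962 bp, lies as near the limit, but that gene has a closer one at 630 bp. For every other member the closest IDR summit was farther than 2000 bp, at 2482 bp for mrps-6, where it lay at the spliced leader gene sls-2.4, and 3914 bp for mrps-26.

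In the pooled list, summits collected just downstream of the starts. Of the 56 pooled summits, 17 lay in the first 200 bp of the gene, 30.4%, against 15.5% of 10275 protein-coding genes with a pooled peak, and 2 lay in the 200 bp before the start, 3.57%, against 11.8%. In all, 35 of 56 summits stood at or downstream of the start, 62.5%, against 55.6%. The replicates differed in this: at or downstream stood 54.2% of 48 summits in replicate 1, against 54.1%, and 60.4% of 48 in replicate 2, against 56.7%. Within 200 bp on either side stood 43.8% in replicate 1, against 26.9%, and 29.2% in replicate 2, against 25.3%. By annotation, 34 summits fell in coding sequence, of the member or of another gene, 60.7%, against 38.9%. A further 9 fell in introns, likewise of any gene, 16.1% against 24.7%, and 10 between genes, 17.9% against 28.5%. The mrpl-49 summit, for example, counts as coding sequence of rpl-28, and that of mrpl-23 as an intron of fars-1. These shares are descriptions and carry no test.

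**Figure D3:**
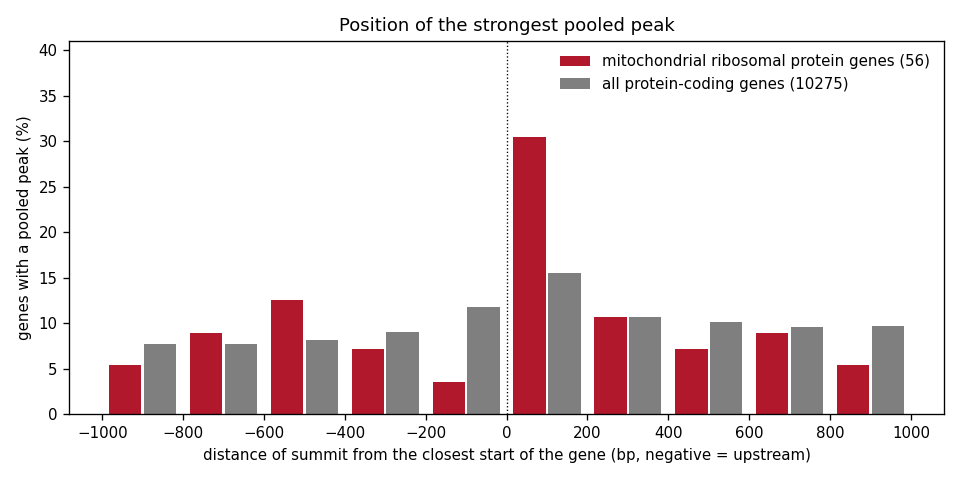
Distance of the strongest pooled summit from the closest start of the gene (bp, negative is upstream), in bins of 200 bp; red bars are the 56 mitochondrial ribosomal protein genes with a pooled peak and grey bars all 10275 protein-coding genes with one, each as a share of its own total (%). The bin from 0 to 200 bp holds 30.4% of the red and 15.5% of the grey genes.

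These genes are short and closely packed, and the share with a peak was higher where another start was near. The median span was 1125 bp, against 2026 bp over all protein-coding genes. The start of another coding gene lay within 1000 bp for 40 of the 70 genes, 57.1%, against 25.3% of all protein-coding genes. A coding gene on the same strand ended within 500 bp upstream for 27 of the 70, 38.6%, against 18.1%. A pooled peak was found for 35 of the 40 genes with such a near start, 87.5%, against 58.7% of all protein-coding genes of that kind, and for 21 of the 30 without one, 70%, against 49%. The higher share was thus seen in both kinds. Among genes spanning up to 2000 bp it was 84.9% of 53, against 48.7% of 9871. How far spacing contributes to the peaks was not tested beyond these shares.

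The summit often stood closer to a neighbour. A member's own start was the closest coding start for 38 of the 56 genes, 67.9%, against 86% of protein-coding genes with a pooled peak, and for the other 18 another gene's start was closer. An example that joins both kinds of ribosome is mrpl-49, whose pooled summit, with a signal of 29.4, lay in coding sequence of rpl-28, a cytoplasmic ribosomal protein gene, 78 bp from the rpl-28 start and 597 bp upstream of mrpl-49. mrps-35 (24.2) had its summit 4 bp from the start of sws-1, and mrpl-54 (32.8) had its summit 18 bp from that of F25H5.10. Noncoding genes, with piRNA genes and pseudogenes not counted, were rare beside the summits. One lay within 250 bp for 2 of 56 genes, mrpl-23 and mrpl-9, 3.57%, against 8.29% of protein-coding genes with a pooled peak.

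No member lies on the X chromosome, where 2731 protein-coding genes are annotated, and the background on autosomes alone was 50.7%. A pooled peak was found for 13 of 15 members on chromosome I, against 52.6% of the protein-coding genes there, and for 10 of 12 on II, against 50.3%. On III it was found for 16 of 22, 72.7%, against 56.1%. On IV it was found for 9 of 11, against 49.4%, and on V for 8 of 10, against 47.8%. The members' share was the higher one on each of these 5 chromosomes. Large and small subunit genes had similar values, a difference that was not tested: 31 of 41 mrpl genes, 75.6%, and 25 of 29 mrps genes, 86.2%, had a pooled peak, with median signals of 30.4 and 29.6. Of the 13 genes among the 3000 strongest peaks, 9 were mrpl and 4 mrps genes.

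The replicates ordered the genes in a loosely similar way. The signals of the 40 genes found in both gave a Spearman's rho of 0.409, against 0.349 over 6372 protein-coding genes. These are correlations across genes that share the same 2 libraries, given as a description. The median gap between a gene's percentiles in the 2 replicates was 19.9 percentile points, against 21.4 over all protein-coding genes with both. Both replicates placed 10 of the 40 above percentile 75, which is 25% of them, against 17%. The summits of the 2 replicates were within 200 bp of each other for 18 of the 40, 45%, against 37.9%, and for the other 22 the strongest summits stood farther apart.

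Single genes could differ widely between the replicates. mrps-18B, for an S18 protein, stood at percentile 84.0 in replicate 1 and 2.2 in replicate 2, with summits 1083 bp apart. mrps-16, for bS16m, stood at 84.2 and 14.2 with summits 133 bp apart, and mrpl-49 stood at 87.3 and 19.2. mrps-2 went the other way, as given above. A peak was found in replicate 1 and not in replicate 2 for 8 genes, in replicate 2 and not in replicate 1 for 8 others, and in the pool alone for 3, mrps-17, mrpl-15 and mrpl-30.

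**Figure D4:**
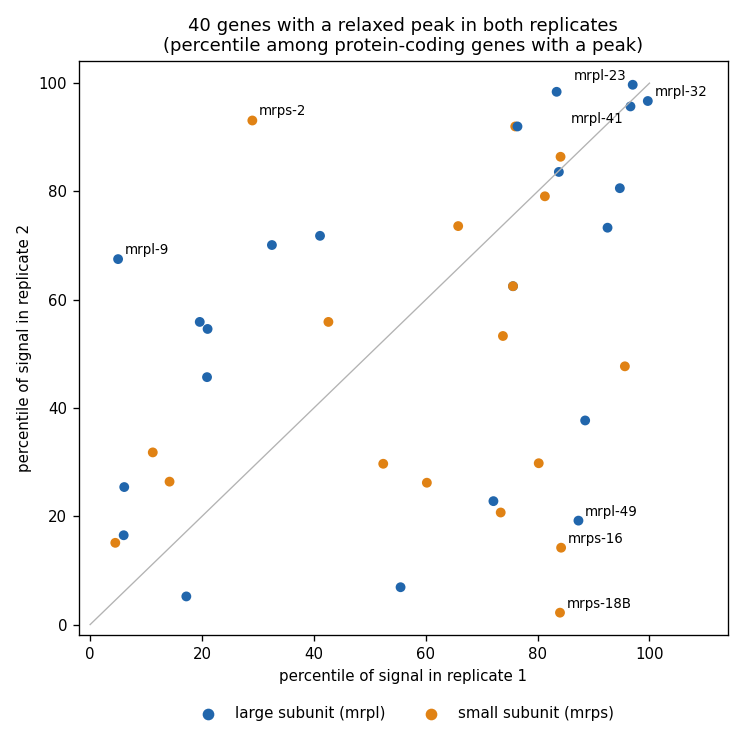
Percentile of the signal in replicate 1 (horizontal) and replicate 2 (vertical) among protein-coding genes with a peak in that list, for the 40 genes with a peak in both; blue points are mrpl and orange points mrps genes, and the line marks equal percentiles. mrpl-32, mrpl-23 and mrpl-41 are high in both, while mrps-18B is at 84.0 and 2.2.

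The T-box site, the sequence that T-box factors are known to bind, was rare in these windows, as it was around pooled summits in general. Within 100 bp of the summit, AGGTGTGA and its core GGTGTGA were found on neither strand for the 56 genes, against 0.409% and 1.65% of all protein-coding genes with a pooled peak. At those rates 56 windows could not show a lower share. The shorter GGTGTG, which the longer motifs contain, was found at 1 gene, 1.79%, against 5.65%. That gene was mrpl-53, with a pooled signal of 31.5. Its summit stood 701 bp downstream of the start, beyond the end of mrpl-53 at 9598201 and in an untranslated region of nhr-19. The site lay 40 bp to the left of the summit and so outside mrpl-53 as well. It is shown here on the forward strand with the match in capitals, chrII:9598271-9598300.
mrpl-53: aagtgatacgtaGGTGTGgttggttgaggg
The letters TTTCAG, the usual acceptor for trans-splicing and splicing in worms, stood on the gene's strand within 100 bp of the summit for 17 of 56 genes, 30.4%, against 22.6%. A match is a description and does not show a site in use.

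Other mitochondrial genes and the cytoplasmic ribosomal protein genes give a scale for these values. Of 46 respiratory chain genes, 38 had a pooled peak, 82.6%, and 19 stood among the 3000 strongest, 41.3%, with a median percentile of 84.0. Of 78 cytoplasmic ribosomal protein genes, 72 had a pooled peak, 92.3%, and 39 stood among the 3000 strongest, 50%, with a median percentile of 88.3. The mitochondrial ribosomal protein genes thus had a pooled peak about as often as respiratory chain genes, 80% of 70, but a place among the 3000 strongest in 18.6%, and a median percentile of 58.6. Differences between these lists were not tested.

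Of 16 genes for mitochondrial translation factors and synthetases, 12 had a pooled peak, 75%, 5 had a peak in both replicates, 31.2%, against 31.9% of all protein-coding genes, and 2 stood among the 3000 strongest, with a median percentile of 45.7. The strongest were ears-2, a glutamyl-tRNA synthetase gene, with 47.6 in the pooled list, 36.7 in replicate 1 and no peak in replicate 2, and dap-3, whose product is a small subunit protein not named mrps, with 41.8, 28.8 and 14.9. The dap-3 summit stood at -925 bp from its start, and the start of dohh-1 was closer. Of 12 mitochondrial chaperone and stress genes, 8 had a pooled peak, 66.7%, and 6 stood among the 3000 strongest. They include hsp-60, the mitochondrial chaperonin, at 123.6 in the pooled list, close to mrpl-32, but at ranks 95 and 34 in replicates 1 and 2, where mrpl-32 stood at 44 and 515. hsp-60 has an IDR peak and mrpl-32 does not, but the start of Y22D7AL.10 was closer to the hsp-60 summit. The respiratory chain list had 1 gene with an IDR peak, mev-1, for a subunit of succinate dehydrogenase, which lies near tbx-9. Its pooled signal was 155.5, and the start of ced-9 was closer to the summit. The cytoplasmic ribosomal protein list had 6, rpl-3 at 174.3 in the pooled list, rps-6 at 144.5, rpl-20 at 111.3, rpl-35 at 108.0, rps-17 at 103.8 and rpl-43 at 96.7. Another gene's start was closer to the summit for rpl-20 and rpl-43, Y17G9B.5 and xrn-2 in that order. For the others the gene's own start was the closest, although the pooled rps-6 and rps-17 summits stood 847 and 867 bp downstream of it. The mrpl-32 peak, at 120.5, was stronger in the pool than 4 of these 6, and yet has no IDR peak.

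**Figure D5:**
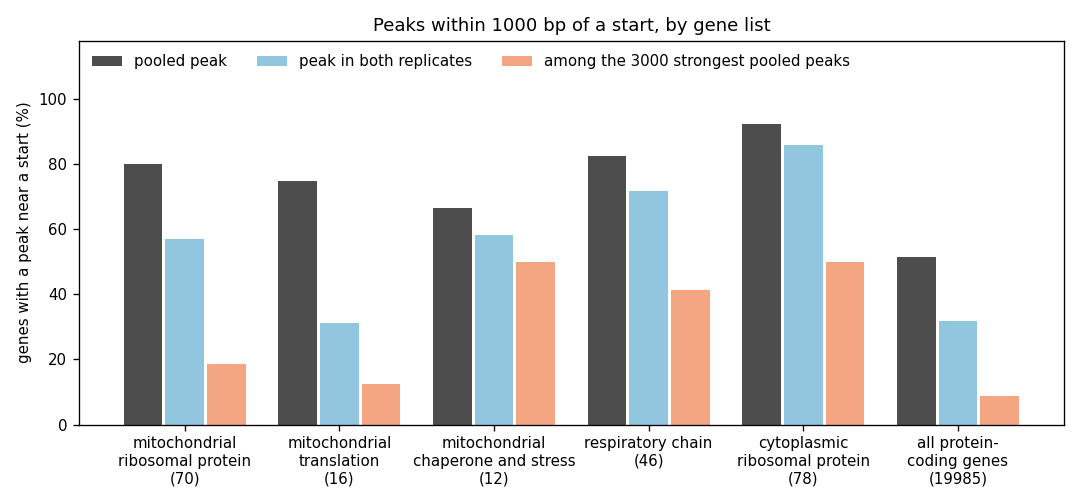
Share of genes (%) with a pooled peak (dark), with a relaxed peak in both replicates (blue) and with a peak among the 3000 strongest of the pool (orange), for each gene list with its number of genes. The mitochondrial ribosomal protein genes reach 80%, 57.1% and 18.6%, the cytoplasmic ribosomal protein genes 92.3%, 85.9% and 50%, and all protein-coding genes 51.4%, 31.9% and 8.66%.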

How the data were processed

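Peak lists on build ce11 were used, from 2 ChIP-seq libraries of 1 group. Text files deposited with the samples say that the relaxed lists came from aligned reads of these libraries and a control, and the IDR list from the relaxed ones. No aligner or peak caller is named in the sources used here. Each deposited signal value has no stated scaling, and the deposited −log10 q-value is in the narrowPeak column for it. The control and the ce10 lists were not analysed here. Depth is unknown, since no read counts were at hand. Replicate 1 had 25659 relaxed peaks, replicate 2 had 30000, the pool 30000 and the IDR list 169. In the pool, 10 peaks on mitochondrial DNA are ranked together with the nuclear ones, and all of them stand above the members. mrpl-32, at rank 70, is thus at rank 60 among nuclear peaks. Replicate 1 had 14 peaks on mitochondrial DNA and replicate 2 had 0.

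For each protein-coding gene the strongest peak with its summit within 1000 bp of a transcript start was taken in each list, and shares over the mitochondrial ribosomal protein genes were set beside those over all 19985 protein-coding genes. Coordinates count from 1, and 0 peaks ended beyond their chromosome in WBcel235. Noncoding genes near a summit were searched without piRNA genes and pseudogenes. With 1 group and no second condition no test was made. Shares have Wilson intervals. Members and lists were chosen with earlier results of these data known. Of the names on the mitochondrial translation list, 9 were not found in the annotation. The cytoplasmic list was made from a name pattern and the respiratory chain list from a pattern and names.

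Named genes were members with an IDR peak, the 8 with the strongest and 4 with the weakest pooled peak, those with no peak, the 2 nearest the 1000 bp limit on each side, the 4 that differed most between replicates, and mrps-5. From each other list they were the genes with an IDR peak, or else the 2 strongest. All other genes named, such as mrpl-38, mrps-30, mrpl-4 and the other S18 genes beside mrps-18B, were chosen after their values were seen, as was the count of q-values at or below 0.05. Alternatives changed the distance, the position of a peak, the starts, the assignment of shared peaks, the threshold and the list. Assignment of peaks to genes was tested on simulated data. Python 3.11.15, numpy 2.4.6, pandas 2.3.3, scipy 1.17.1 and matplotlib 3.10.9 were used.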

Additional observations from a re-analysis of the deposited data

How the results depend on the processing

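Alternatives changed the distance, the position used for a peak, the starts, the assignment of shared peaks, the threshold and the list. Of 36 values so obtained, 28 were within 1.5 times the reported count or, for the median percentile, within its 95% interval, which is a wide tolerance. Some of the 28 were fixed in advance. An IDR count of 0 could only stay at 0 under a narrower distance, fewer starts, closest starts only or a stricter IDR list. The deposited q-value fell in the same order as the signal over the members, so its median percentile of 58.6 is no separate check. The members' share with a pooled peak was above that of all protein-coding genes under each of 7 alternatives, from 39 genes within 500 bp (55.7% against 35.3%) to 64 within 2000 bp (91.4% against 69.1%), and 43 genes when a peak counted only for its closest start (61.4% against 46.6%). With 1 replicate alone the count was 48 either way, the count in the strongest part of the list was 9 either way (12.9%, against 8.2% without replicate 1 and 7.52% without replicate 2), and the median percentile was 55.3 without replicate 1 and 68.9 without replicate 2. Within 500 bp, 23 genes had a peak in both replicates (32.9% against 17.5%) and 8 stood among the 3000 strongest (11.4% against 5.48%). Within 2000 bp, 25 stood among the 3000 strongest (35.7% against 14.2%), the median percentile was 71.6, and 1 gene, mrps-28, had an IDR peak (1.43% against 0.981%). Overlap of the whole peak with the window also gave 1 gene with an IDR peak (1.43% against 0.605%). Among the 1000 strongest peaks there were 7 genes (10.0% against 3.33%), fewer by construction. No paired analysis was possible because there is 1 group. The replicate lists limit the strength of single genes, and without read counts the depth behind a signal value is unknown.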
